A study of Mus musculus with 30 samples.

Results

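The constant region genes of the mouse immunoglobulin loci give every antibody chain its isotype, and 10 of them were followed here across blood platelets and peripheral blood mononuclear cells (PBMCs) of a melanoma model. They were Ighm, Ighd, Ighg1, Ighg2b, Ighg2c, Ighg3 and Igha of the heavy chain locus, Igkc of the kappa locus, and Iglc1 and Iglc2 of the lambda locus. The members were found by matching the Ensembl identifiers of both count tables to gene symbols, and all 10 were present among the 54532 genes of each table. Each passed the filter on low counts in every comparison.

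Female C57BL/6 mice, aged 6 to 8 weeks at the start, received a subcutaneous injection, and blood was collected on day 14. The O group (optimal inoculation, large tumor) received 100000 B16F10 cells per mouse, a line of C57BL/6 melanoma cells. The S group (suboptimal inoculation, early tumor) received 2000 B16F10 cells per mouse and had no tumor to be seen at autopsy, and the C group (control) received the Hank's balanced salt solution (HBSS) in which the cells were suspended. Each group had 5 platelet libraries and 5 PBMC libraries, for a total of 30, and every library came from a pool of several mice. By the labels, the platelet pools held 10, 5, 5, 10 and 10 mice in the C group, 10 mice each in the S group (9 to 11 by the study's methods) and 3, 4, 5, 3 and 5 mice in the O group, and PBMC pools held between 3 and 5 mice. The P values below therefore measure the spread between pooled samples. The model is inoculated rather than spontaneous, and pools of the S group may hold mice in which no tumor would have formed.

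Antibodies are built from paired heavy and light chains, each with a variable and a constant region. A naive B cell splices its heavy chain transcript to Ighm or Ighd and so carries IgM and IgD. Class switch recombination later replaces them with an Ighg, Ighe or Igha constant region, and a plasma cell secretes the resulting antibody in large amounts. The light chain is kappa in most mouse B cells and lambda in a minority. Platelets have no nucleus and make no antibody, so their libraries can hold such transcripts from B-lineage cells or RNA in the preparation, or from RNA taken up by platelets, and these sources cannot be told apart in bulk RNA. In the counts used here, the membrane and the secreted form of one gene are not separated.

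The heavy chain members lie on the minus strand of chromosome 12 (GRCm38), in the order Ighm, Ighd, Ighg3, Ighg1, Ighg2b, Ighg2c and Igha, from Ighm at chr12:113418558-113422730 to Igha at chr12:113254830-113260236. Igkc is a single exon at chr6:70726435-70726966 on the plus strand. It lies within the long noncoding gene Gm30211 on the same strand, with no shared exon base. Iglc1 (chr16:19061618-19062071) and Iglc2 (chr16:19198396-19200351) lie on the minus strand of chromosome 16. Iglc2 shares 38 exon bases with the joining segment Iglj2, and Iglc1 lies opposite the antisense gene 2010309G21Rik with no exon base in common.

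Sequence likeness decides how well reads can be given to 1 member. The coding sequence of Iglc2 was 96.2% identical to that of Iglc3, a lambda constant gene that is not among the 10, with 12 differences and an unbroken identical run of 79 bp. Iglc1 and Iglc2 were 73.4% identical. Among the heavy chains, Ighg2b and Ighg2c were the closest pair at 87.6%, and Ighg2b and Ighg3 shared an identical run of 88 bp. Counts of Iglc2 and of the Ighg genes are therefore uncertain where a read fell in a shared run. The first 300 coding bases of the 3 lambda genes, from the GRCm38 transcript annotation, are printed because the division of reads between Iglc2 and Iglc3 touches the clearest difference between the fractions. Capitals mark bases of Iglc3 (11 in this window) and of Iglc1 (77) that differ from Iglc2 in a pairwise alignment.
Iglc2 (chr16:19198554-19198853, minus strand): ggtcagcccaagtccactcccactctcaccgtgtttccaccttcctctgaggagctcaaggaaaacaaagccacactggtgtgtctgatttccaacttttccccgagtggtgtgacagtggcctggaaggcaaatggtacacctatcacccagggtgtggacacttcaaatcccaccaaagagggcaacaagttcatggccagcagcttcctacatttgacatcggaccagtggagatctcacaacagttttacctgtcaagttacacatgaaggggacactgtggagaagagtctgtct
Iglc3 (chr16:19065382-19065681, minus strand): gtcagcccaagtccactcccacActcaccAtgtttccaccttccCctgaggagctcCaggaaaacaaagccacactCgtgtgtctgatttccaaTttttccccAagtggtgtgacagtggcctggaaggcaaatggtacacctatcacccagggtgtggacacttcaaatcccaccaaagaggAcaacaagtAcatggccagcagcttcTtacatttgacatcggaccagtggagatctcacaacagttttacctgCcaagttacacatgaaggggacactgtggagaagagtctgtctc
Iglc1 (chr16:19061772-19062071, minus strand): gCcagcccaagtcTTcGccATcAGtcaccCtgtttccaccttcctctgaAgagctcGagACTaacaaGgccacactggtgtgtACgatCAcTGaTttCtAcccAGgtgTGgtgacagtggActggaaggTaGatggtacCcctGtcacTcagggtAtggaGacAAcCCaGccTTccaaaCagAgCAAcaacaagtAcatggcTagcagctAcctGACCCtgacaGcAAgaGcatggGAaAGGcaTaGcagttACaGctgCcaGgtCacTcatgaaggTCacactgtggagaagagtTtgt

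Platelet libraries held 12259036 to 25360080 counts and PBMC libraries 13390983 to 15973449. Hemoglobin genes took 4.02% to 39.0% of platelet counts and 3.23% to 24.5% of PBMC counts, and replicate 1 of the O group had the highest share in both fractions. The 8 platelet and megakaryocyte markers summed to 12890 to 73020 CPM (counts scaled to library size) in platelet libraries and 438.4 to 5855 CPM in PBMC libraries when all 30 libraries were scaled together. All 8 B cell markers had counts in all 15 platelet libraries, where their sum was 533.5 to 1971 CPM on that scale against 1171 to 2323 CPM in PBMCs. The 5 melanoma markers summed to at most 7.563 CPM in platelets and 25.83 CPM in PBMCs. The cell type label of the platelet samples reads PBMC, so fractions were taken from the sample titles.

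Per kilobase of exon, Igkc was the highest of the 10 members in both fractions and Ighm came next. With all 30 libraries on 1 scale, Igkc averaged 499 ± 163 CPM per kilobase (SD, n = 15) in platelets and 826 ± 161 in PBMCs. Ighm averaged 357 ± 88.9 in platelets and 548 ± 105 in PBMCs, and Igkc was above Ighm in every one of the 30 libraries. In platelets the order continued with Iglc2 (184 ± 47.7), Ighd (158 ± 32.5), Iglc1 (79.7 ± 30.9), Igha (23.8 ± 20.6), Ighg2b (5.31 ± 2.46), Ighg2c (3.73 ± 3.60), Ighg1 (2.06 ± 2.38) and Ighg3 (1.63 ± 0.642). Iglc2 was above Ighd in 11 of 15 platelet libraries, and Ighg1 above Ighg3 in 6 of 15. Ighg2b was above Ighg2c in 12 of 15 and Ighg2c above Ighg1 in 12 of 15. None of these pairs was separated beyond its spread. In PBMCs Ighd (213 ± 32.2) was above Iglc2 (118 ± 24.98) in all 15 libraries. Igha (57.1 ± 30.6) and Iglc1 (53.2 ± 16.3) were not separated there, nor were Ighg2c (9.14 ± 3.34) and Ighg2b (8.9996 ± 3.95). Ighg1 (2.86 ± 1.401) and Ighg3 (1.20 ± 0.441) closed the order.

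The lambda gene Iglc3 reached 106 ± 24.1 CPM per kilobase in platelets and 48.1 ± 9.62 in PBMCs. Ighe, the constant region of IgE, had 0 to 3 counts in the platelet libraries and 0 to 25 in the PBMC libraries and was not tested. Iglc4 had at most 16 counts.

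Between the S group and the O group, Igha, Igkc and Ighm were higher in the S group. Igha, which encodes the heavy chain of IgA, measured 117, 27.0, 38.6, 49.7 and 106 CPM in the 5 S group libraries, scaled among platelet libraries. In the O group it measured 8.33, 5.91, 22.6, 4.49 and 18.2 CPM. Every S group library was above every O group library. The fitted difference was 2.46 on the log2 scale (SE 0.542, 5.51-fold, adjusted P = 0.225, edgeR).

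Igkc, the constant region of the kappa light chain, measured 264, 184, 201, 167 and 294 CPM in the S group and 71.5, 89.9, 162, 97.4 and 141 CPM in the O group. These groups did not overlap either, with 167 CPM as the lowest S group value and 162 CPM as the highest O group value. The log2 difference was 0.95 (SE 0.270, 1.94-fold, adjusted P = 0.25). Ighm, the heavy chain of IgM, lay at 431 to 740 CPM in the S group and at 228 to 425 CPM in the O group, again without overlap. Its log2 difference was 0.68 (SE 0.255, 1.60-fold, adjusted P = 0.309).

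The calls above use the study's threshold, an unadjusted P under 0.05, by which 3 of 10 members were called higher. Over all 13306 genes tested, 7.23% were called higher by that rule and 1.99% had S group libraries all above the O group. No member and no other gene reached an adjusted P under 0.05 in this edgeR fit, and with the replicate number as a block 3 genes did, none of them a member. In DESeq2, 3 members had an unadjusted P under 0.05 and 2 of them passed adjustment, Igha with an adjusted P of 0.00167 and Igkc with 0.044. Without O group replicate 3 or O group replicate 5 there were 5 calls. The other 7 members had positive differences between 0.26 (Ighg2c) and 0.52 (Iglc1) on the log2 scale, with adjusted P from 0.408 for Iglc1 to 0.872 for Ighg2c. The median over the 10 members was 0.47, against -0.01 over all genes tested.

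Between the O group and the C group, 5 of 10 members were called lower in the O group, with 2.17% of 13270 genes called lower. These were Igha, Ighg1, Igkc, Iglc1 and Ighg3, and none reached an adjusted P under 0.05 (lowest 0.91 in edgeR and 0.188 in DESeq2). Igha measured 99.0, 25.3, 66.7, 24.02 and 19.3 CPM in the C group, and its log2 difference was -1.97 (SE 0.555, adjusted P = 0.91). The groups overlapped by 1 O group library of 22.6 CPM. Leaving out any 1 library kept the Igha difference between -2.33 and -1.50.

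Ighg1, the heavy chain of IgG1, measured 4.62, 2.01, 17.8, 4.04 and 5.48 CPM in the C group and 0.537, 1.63, 3.88, 0.907 and 0.917 CPM in the O group, from 4 to 367 counts per library. Its log2 difference was -2.12 (SE 0.636, adjusted P = 0.91). Replicate 3 of the C group stood above the rest, and without it the difference was -1.36 (adjusted P = 0.873). Igkc was lower in the O group by a log2 difference of -0.75 (SE 0.255, adjusted P = 0.91) and Iglc1, a lambda light chain constant region, by -0.94 (SE 0.305, adjusted P = 0.91). Ighg3, the IgG3 heavy chain, had a difference of -0.83 (SE 0.377, adjusted P = 0.91), and leaving out 1 library lost its call in 8 of 10 cases. The other 5 members also had negative differences, from -0.57 for Ighg2c to -0.33 for Ighd, so the member median was -0.66 against -0.01 over all genes.

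Between the S group and the C group, Ighg1 was the member called, lower in the S group. It measured 2.60, 1.75, 0.661, 3.02 and 3.07 CPM in the S group, a log2 difference of -1.60 (SE 0.525, adjusted P = 0.746). The background was 2.13% of 13268 genes called lower. With the replicate number as a block no member was called, and the Ighg1 difference was -1.22 (adjusted P = 0.855). Without replicate 3 of the C group, the difference was -0.84 (adjusted P = 0.691) and no member was called in edgeR at an unadjusted P under 0.05. Without replicate 1 of the C group Iglc1 was called too, also lower (-0.54, adjusted P = 0.391). The other 9 members had differences between -0.40 (Iglc1) and 0.54 (Igha), and none was called.

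**Figure D1:**
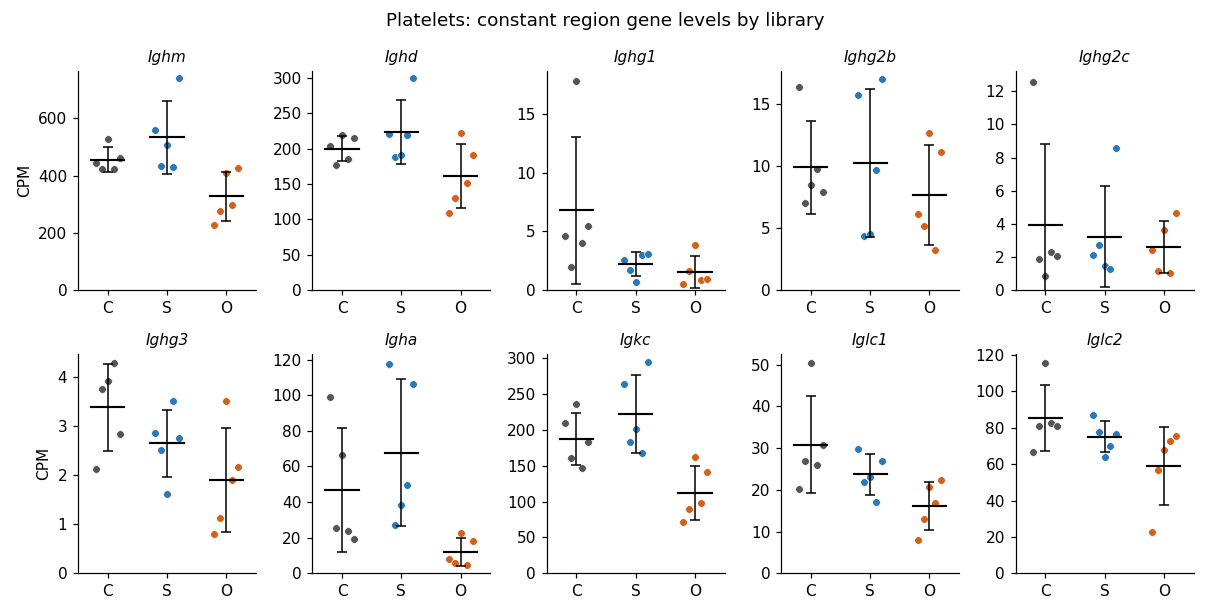
Level of each member in the platelet libraries in CPM (linear axis), scaled among platelet libraries, for the C, S and O groups, with 1 point per library, a bar at the mean and whiskers of 1 SD (n = 5). For Igha, Igkc and Ighm the S group points all lie above the O group points, and the C group point of Ighg1 at 17.8 CPM stands above the other 4.

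B-lineage genes outside the immunoglobulin loci moved in the same libraries. Over all genes, 7.23% were called higher in S group than in O group platelets. Of 24 genes of the B cell receptor and B cell identity list, 13 were called higher there and 0 lower, with a median of 0.69. They included Cd79a (1.21, adjusted P = 0.225) and Cd79b (1.06, adjusted P = 0.225), the signalling partners of surface immunoglobulin, and Ms4a1 (0.91, adjusted P = 0.302), a B cell surface protein. In O group against C group platelets, 7 of the 24 were called lower, against 2.17% of all genes, and 0 higher. Cd79b was at -0.70 (adjusted P = 0.91) and Ms4a1 at -0.67 (adjusted P = 0.91). In S group against C group platelets, 6 of 24 were called higher, against 4.29% of all genes, with Cd79a at 0.70 (adjusted P = 0.746). Cd79b (0.39, adjusted P = 0.769) and Ms4a1 (0.27, adjusted P = 0.833) were not called there, 9 of the 24 had negative differences, and the list median was 0.15. As in any bulk RNA, fewer cells of a type and less RNA per cell cannot be told apart.

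Of the 18 genes of the plasma cell and antibody secretion list, 16 were tested between S and O group platelets. Among them 7 were called higher and 1 lower, Ssr4 (-2.06, adjusted P = 0.279). Over all 13306 genes, 962 were called higher and 887 lower. Jchain, which joins IgA and IgM into polymers, was higher in the S group by 1.97 (SE 0.551, adjusted P = 0.246), and the plasma cell surface proteoglycan Sdc1 by 1.69 (SE 0.502, adjusted P = 0.258). Mzb1, an endoplasmic reticulum chaperone of B cells, had a difference of 0.07 (adjusted P = 0.919) and Xbp1, the transcription factor of the secretory programme, of -0.34 (adjusted P = 0.772). In O group against C group platelets 1 of 15 tested genes of the list was called higher, Ssr4, a subunit of the translocon-associated protein complex (1.90, adjusted P = 0.91), and 2 were called lower. These were Jchain (-1.67, SE 0.552, adjusted P = 0.91) and Txndc5 (-0.42, adjusted P = 0.91). Over all 13270 genes, 347 were called higher and 288 lower. In S group against C group platelets 4 of 15 were called higher, against 4.29% of all genes, and 0 lower. Jchain (0.36, adjusted P = 0.880) was not called there. None of the 11 tested class switching genes was called in any platelet comparison in edgeR at an unadjusted P under 0.05. Of 9 B cell precursor genes, 5 were tested. Between S and O group platelets 4 of the 5 had negative differences and none of those was called, while the interleukin 7 receptor gene Il7r, which T cells also express, was called higher (0.85, adjusted P = 0.251). In S group against C group platelets 2 of the 5 were called lower, against 2.13% of all genes. These were Dntt (-1.12, adjusted P = 0.752) and Rag1 (-1.21, adjusted P = 0.755), which act in the joining of variable region segments.

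Markers of other cells moved with these members too, and their part in the results was not tested. The 7 T cell markers summed to 187.7 to 249.5 CPM in S group platelets and 101.3 to 171.9 CPM in O group platelets. Of the 7, 6 were called higher in the S group, against 7.23% of all genes. The B cell markers summed to 672.3 to 1382 CPM in the S group, 372.1 to 728.5 CPM in the O group and 638.6 to 742.8 CPM in the C group. The 7 neutrophil markers went the other way, from 136.9 to 270.7 CPM in the S group to 278.2 to 2951 CPM in the O group. Between O and C group platelets 4 of 6 tested neutrophil markers were called higher in the O group (median 2.43), where the C group sums were 124.7 to 587.3 CPM. Over all genes, 347 of 13270 were called higher in that comparison and 288 lower. There 3 of 7 T cell markers were called lower, and all 7 had negative differences (median -0.44). Pool sizes also differed between these groups. Every S group pool held more mice than any O group pool, so pool size and group cannot be told apart there. The C and O groups both held pools of 5 mice, and the part of pool size in that comparison was not tested.

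In PBMCs the same members were compared between the same groups, scaled among PBMC libraries. The S group was higher than the O group for all 4 members called, which were Iglc2, Iglc1, Igkc and Ighg3. Iglc2 measured 127, 114, 97.4, 152 and 117 CPM in the S group and 72.0, 86.9, 84.3, 89.0 and 125 CPM in the O group. The groups overlapped through O group replicate 5, and the log2 difference was 0.41 (SE 0.156, adjusted P = 0.351). Iglc1 lay at 29.1 to 58.8 CPM in the S group and 22.0 to 44.1 CPM in the O group (0.59, SE 0.229, adjusted P = 0.363). Igkc lay at 569 to 900 CPM and 523 to 697 CPM (0.34, SE 0.138, adjusted P = 0.369). Ighg3 lay at 3.41 to 8.36 CPM and 2.35 to 4.52 CPM (0.63, SE 0.264, adjusted P = 0.379).

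The background was 4.43% of 14686 genes called higher, and no member passed an adjusted P of 0.05 in edgeR or in DESeq2. Same-numbered S and O group PBMC libraries deviated together, and with the replicate number as a block Ighg2c, the IgG2c heavy chain of C57BL/6 mice, was called as well (0.48, adjusted P = 0.353), 5 members in all. With the block, 779 of the 14686 genes were called higher. The count of members called changed with single libraries. Without O group replicate 3 no member was called, and without O group replicate 5 or S group replicate 3 there were 6 calls. Without O group replicate 2, O group replicate 4 or S group replicate 4 there were 2 calls, and without S group replicate 1 there was 1. Igha had a larger difference, 0.66, but also a larger error (SE 0.383, adjusted P = 0.498).

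In O group against C group PBMCs, Igha, Ighg1 and Iglc2 were called lower, 3 of 10 members against 4.39% of 14726 genes called lower. Igha measured 454, 225, 202, 153 and 351 CPM in the C group and 237, 197, 170, 84.8 and 131 CPM in the O group. The log2 difference was -0.76 (SE 0.335, adjusted P = 0.408), and the groups overlapped. Ighg1 lay at 8.11 to 20.8 CPM in the C group and 3.72 to 10.9 CPM in the O group (-0.76, SE 0.304, adjusted P = 0.381). Iglc2 lay at 106 to 138 CPM and 72.0 to 125 CPM (-0.38, SE 0.141, adjusted P = 0.356). The other 7 members had negative differences from -0.56 (Ighg2b) to -0.11 (Ighm). The count changed with the setting, to 5 members in DESeq2, 6 with the replicate number as a block and 1 with all 3 groups in a single fit. With the block, Ighg2b, Ighg2c and Ighg3 were called besides (adjusted P = 0.403 for each). Over all genes, 717 of 14726 were called lower with the block. Leaving out C group replicate 1 or C group replicate 5 left 1 call, whereas there were 5 calls without O group replicate 1 and 6 without C group replicate 4.

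Between S group and C group PBMCs no member was called in edgeR or in DESeq2 at an unadjusted P under 0.05, with or without the replicate block, against 2.64% of 15139 genes. Differences lay between -0.09 for Igha and 0.25 for Iglc1. Ighm was at 1448 to 2246 CPM in the S group and 1353 to 1806 CPM in the C group (0.23, SE 0.125, adjusted P = 1.0). Without S group replicate 3, Ighm (0.30, adjusted P = 1.0) and Iglc1 (0.36, adjusted P = 1.0) were called, and without C group replicate 3 Ighm was called (0.28, adjusted P = 1.0).

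**Figure D2:**
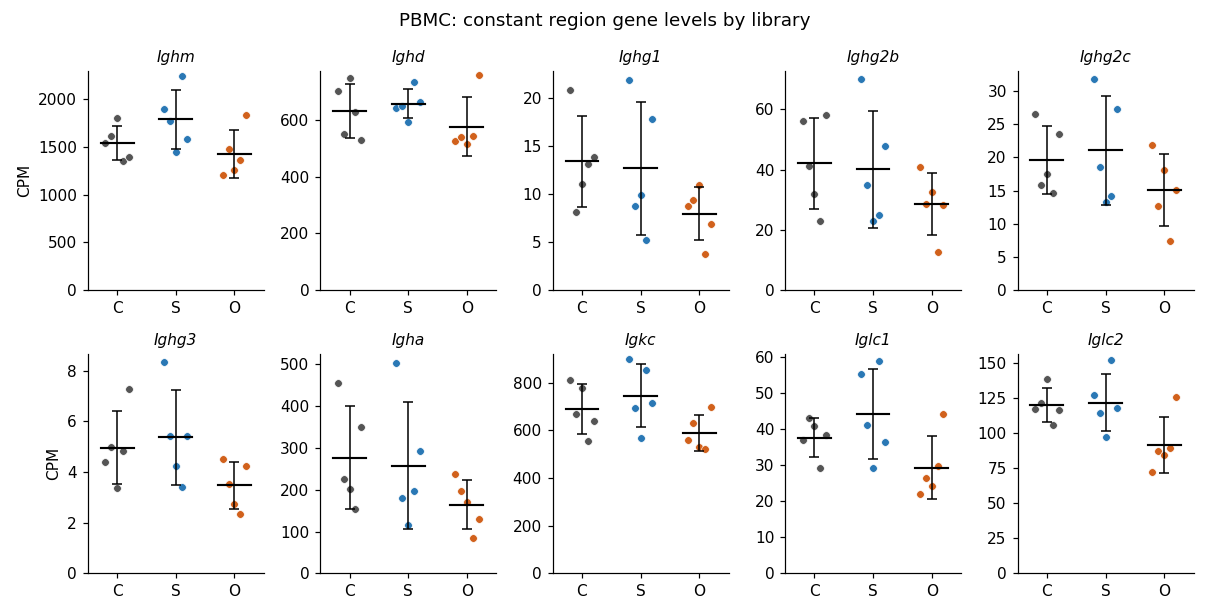
Level of each member in the PBMC libraries in CPM (linear axis), scaled among PBMC libraries, for the C, S and O groups, with 1 point per library, a bar at the mean and whiskers of 1 SD (n = 5). All 10 members overlap between every pair of groups, and Igha ranges from 84.8 CPM in the O group to 504 CPM in the S group.

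In PBMCs the B cell receptor and identity list had 2 of 24 genes called higher in the S group than in the O group, Fcmr, a receptor for IgM (0.38, adjusted P = 0.341), and Vpreb3 (0.61, adjusted P = 0.367), near the 4.43% of all genes. Cd79a (0.28, adjusted P = 0.468) was not called. Of 17 tested genes of the plasma cell list 2 were called higher in that comparison, Pdia4 (0.31, adjusted P = 0.332) and Mzb1 (0.34, adjusted P = 0.368), and Xbp1 was called lower (-0.42, adjusted P = 0.319). All 7 T cell markers and all 5 NK cell markers were called higher in the S group than in the O group, with sums of 767.5 to 1169 CPM against 626.1 to 758.5 CPM and of 271.8 to 340.0 CPM against 132.6 to 262.2 CPM. All 6 erythroid markers were called lower, with sums of 30210 to 84240 CPM in the S group. So were 3 of 7 neutrophil markers, whose sums were 215.3 to 2213 CPM in the S group and 286.4 to 5135 CPM in the O group. Over all 14686 genes, 1145 were called lower in that comparison. In O group against C group PBMCs 2 of 24 were called higher, near the 7.56% of all genes, the kinase Syk (0.27, adjusted P = 0.368) and Plcg2 (0.18, adjusted P = 0.381), and 0 lower. Jchain had a difference of -0.70 there (SE 0.363, adjusted P = 0.463) and Mzb1 was called lower (-0.29, adjusted P = 0.412). Xbp1 was called higher (0.37, adjusted P = 0.381), a gene that other blood cells also express. All 7 T cell markers were called lower in O group than in C group PBMCs, against 4.39% of all genes. Their sums were 626.1 to 758.5 CPM against 749.0 to 1013 CPM. All 6 erythroid markers were called higher, with sums of 61030 to 477200 CPM in the O group against 28960 to 92160 CPM. Their part in the member differences was not tested.

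**Figure D3:**
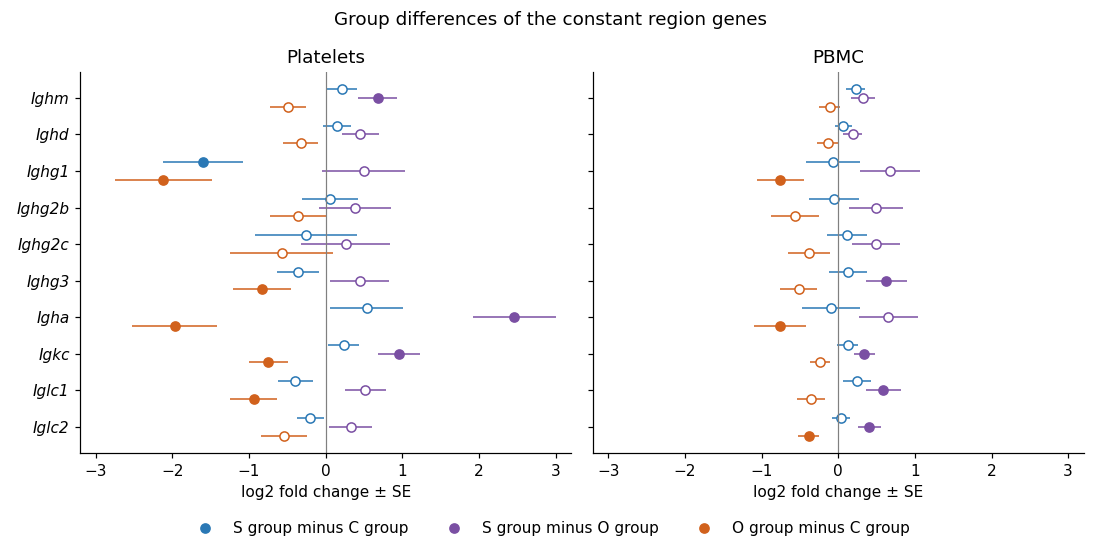
Log2 fold change of each member (horizontal axis, whiskers of 1 SE, edgeR) in platelets and PBMCs for S minus C, S minus O and O minus C group. Filled points have an unadjusted P under 0.05, and the widest differences are those of Igha (2.46) and Ighg1 (-2.12) in platelets.

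A direct test of whether a group difference was unlike between platelets and PBMCs found a P under 0.05 for 2 combinations. The S against O difference of Igha was larger in platelets by 1.69 on the log2 scale (SE 0.696, adjusted P = 0.289). The S against C difference of Ighg1 was lower in platelets by a log2 difference of -1.54 (SE 0.691, adjusted P = 0.907). With the replicate block that call was lost (-1.19, adjusted P = 0.998), and Iglc1 was called in its place (-0.58, adjusted P = 0.998). Over all 16498 genes, 13.6% had a P under 0.05 for the former contrast and 5.38% for the latter. For the O against C contrast no member was below 0.05 in this fit or in DESeq2, against 6.59% of genes, and the lowest was Ighg1 (-1.24, adjusted P = 0.767). Without a filter on low counts Ighg1 was below 0.05 there (-1.34, adjusted P = 0.978), as was Igha with the replicate block (-1.11, adjusted P = 0.694). S against O and O against C comparisons share the O group libraries, and each fraction's C group enters both control comparisons.

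Ighm and Ighd together made up most heavy chain counts. Ighm held 56.8% to 68.0% of the counts of the 7 heavy chain members in platelet libraries (median 64.5%) and 55.0% to 69.6% in PBMC libraries (median 64.1%). Ighd held 23.9% to 33.0% and 20.2% to 28.6%. For the 4 IgG genes together the median share was 2.57% (platelets) and 2.54% (PBMCs). These shares describe counts, and per kilobase of exon the Ighm medians were 65.0% and 65.7%.

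Igha held 6.17% ± 4.12 of heavy chain counts (SD, n = 5) in C group platelets, 7.60% ± 3.43 in S group platelets and 2.17% ± 0.972 in O group platelets. In PBMCs Igha held 10.9% ± 4.33, 9.01% ± 4.45 and 7.53% ± 3.08 in the C, S and O groups.

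Ratios of 2 counts within a library do not depend on scaling between libraries, and 6 ratios were tested in 6 group comparisons by exact two-sided permutation, 36 tests in all. With 5 against 5 libraries there are 252 arrangements and 0.00794 is the smallest P they can give. Of these, 7 had a P under 0.05 and none had an adjusted P under 0.05. The Igha to Ighm ratio differed by 1.84 on the log2 scale between S and O group platelets, with no overlap (exact P = 0.00794, adjusted P = 0.143). It was lower in O than in C group platelets by a log2 difference of -1.43 (exact P = 0.0238, adjusted P = 0.171). The Ighd to Ighm ratio was slightly higher in O group platelets, by 0.16 against the C group (exact P = 0.0317, adjusted P = 0.190).

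Relative to Cd79a, an obligate partner of surface immunoglobulin in B cells, the Ighm counts were lower in S group platelets than in both other groups and the Igkc counts lower than in the C group, by the unadjusted threshold. The Igkc to Cd79a ratio differed by -0.43 between S and C group platelets without overlap (exact P = 0.00794, adjusted P = 0.143). Against the O group its difference was -0.21, with overlap (exact P = 0.222, adjusted P = 0.466). The Ighm to Cd79a ratio differed by -0.46 (exact P = 0.0238, adjusted P = 0.171), and by -0.51 against the O group (exact P = 0.0159, adjusted P = 0.171). In S against C group platelets Cd79a itself differed by 0.70, Cd79b by 0.39 and Ms4a1 by 0.27. Ighm differed by 0.21 and Igkc by 0.23 there, and ratios to other B cell genes were not tested. In PBMCs the Ighm to Cd79a ratio was nearly constant, at 3.07 to 3.48 counts of Ighm per count of Cd79a over 15 libraries, against 2.25 to 4.89 in platelets.

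**Figure D4:**
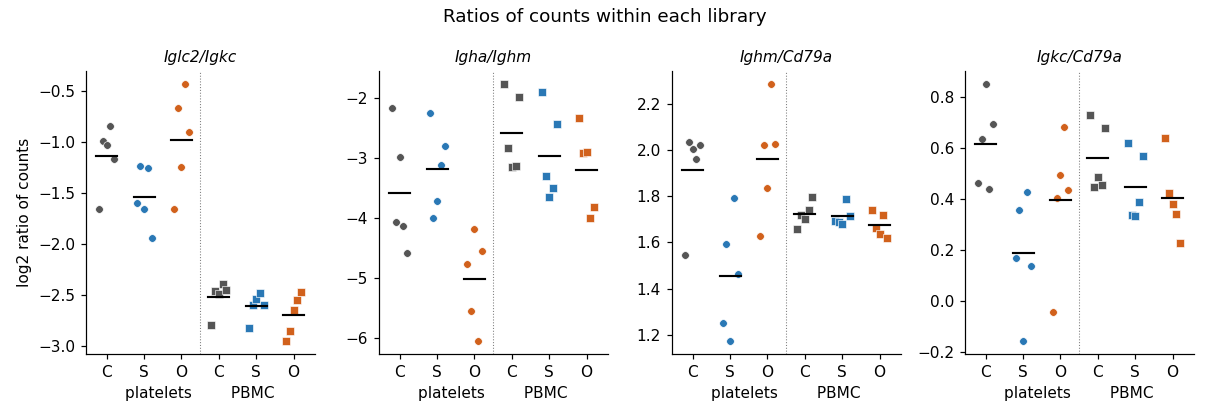
Log2 ratio of counts within each library (vertical axis) for Iglc2 to Igkc, Igha to Ighm, Ighm to Cd79a and Igkc to Cd79a, with 1 point per library and a bar at the group mean, platelets as circles and PBMCs as squares. Every platelet value of Iglc2 to Igkc lies above every PBMC value, and Igha to Ighm is lowest in O group platelets (mean -5.01).

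All 10 members differed between platelets and PBMCs at an adjusted P under 0.05 in a fit over all 30 libraries, as did 81.0% of 16498 genes. For 7 members the level was lower in platelets, against 45.2% of genes. Igha was lower by a log2 difference of -1.52 (SE 0.312, adjusted P = 5.84e-05), from 152 ± 81.8 CPM (SD, n = 15) in PBMCs to 63.5 ± 55.0 CPM. Ighg2c differed by -1.28, Igkc by -0.76, Ighg2b by -0.74, Ighg1 by -0.68, Ighm by -0.63 and Ighd by -0.44. Their adjusted P ran from 8.08e-07 for Igkc to 0.0445 for Ighg1. The Ighg1 call was lost with relative log expression (RLE) size factors (adjusted P = 0.0608) and without a filter on low counts (0.0689). It was also lost in 9 of 15 fits that left out the platelet and the PBMC library of 1 replicate number, with an adjusted P of up to 0.209. Those were O group replicates 1, 2, 4 and 5, C group replicate 1 and S group replicates 1, 2, 3 and 5. By the study's methods, PBMCs were taken from the blood left after platelet-rich plasma was removed, so the fractions of a group share mice. With same-numbered libraries of a group as a block, a pairing that the labels do not give, all 10 members were still called (adjusted P = 0.00769 for Ighg1).

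On the common scale of all 30 libraries, the lambda genes went the other way. Iglc2 was higher in platelets by 0.64 (SE 0.126, adjusted P = 2.78e-05), with 113 ± 29.2 CPM against 72.3 ± 15.3 CPM, and Iglc1 by 0.57 (SE 0.150, adjusted P = 0.00105). Ighg3 was higher by 0.45 (SE 0.180, adjusted P = 0.0239), and lost its call without O group replicate 3, C group replicate 2, 3 or 4 or S group replicate 4 (adjusted P of 0.0527 to 0.0755). With 35.8% of all genes called higher in platelets, 3 of 10 is near the background. The direction of these 3 members depends on scaling the fractions together. Scaled within each fraction, Iglc2 averaged 85.4 CPM in C group platelets and 120 CPM in C group PBMCs. Iglc1 averaged 30.8 and 37.6 CPM there, and Ighg3 3.39 and 4.96 CPM. Iglc3 was also higher, by 1.14 (SE 0.110). The B cell markers had a median difference of -0.64 with 7 of 8 called lower, the members -0.66, and all genes -0.17.

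The balance of light chains therefore differed between fractions. Igkc held 52.2% to 74.0% of the light chain counts of the 3 members in platelets and 80.1% to 85.6% in PBMCs. The ratio of Iglc2 to Igkc counts was 0.261 to 0.745 in platelets (median 0.424) and 0.129 to 0.191 in PBMCs (median 0.170). In a test added after the data were seen, the ratio was higher in platelets 2.61-fold in the C group, 2.11-fold in the S group and 3.29-fold in the O group. Each exact permutation P was 0.00794, with adjusted P of 0.0286 over 18 tests, when libraries were taken as independent. Since the fractions share mice, same-numbered libraries were also paired. The ratio was higher in platelets in 5 of 5 pairs of each group (exact paired P = 0.0625, the smallest that 5 pairs can give). The labels do not give this pairing. After each group was centred on its mean, same-numbered libraries had r of -0.115 to 0.209 in the C group. In the S group r was -0.063 to 0.215, and in the O group 0.063 to 0.609. With the counts of Iglc3 added to those of Iglc2, the folds were 2.89, 2.31 and 3.59 with the same P. This sum cannot recover reads dropped for matching more than 1 gene, and how such reads were treated is not given. Iglc3 also shares 93 exon bases with the antisense gene 2010309G21Rik. The part of read assignment in the difference was not tested. Among the same 18 tests, the O group had a lower Igha to Ighm ratio in platelets than in PBMCs (0.283-fold, exact P = 0.00794, adjusted P = 0.0286). It also had a higher Ighd to Ighm ratio (1.21-fold, with the same P values), and each held in 5 of 5 pairs. The Igkc to Cd79a ratio had exact P from 0.0714 to 0.976.

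Other B-lineage genes were also unevenly placed. Cd79a (-0.70), Cd79b (-0.59) and Ms4a1 (-0.69) were lower in platelets by amounts near that of Ighm. Jchain was lower (-1.03, adjusted P = 0.00163), whereas Mzb1 was higher in platelets (0.83, adjusted P = 4.77e-08). Platelet markers were 4.04 higher by median. Their part in the member differences was not tested.

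Likeness was taken as Pearson's r of log2(CPM + 1) over the 15 libraries of a fraction, without a test, since these libraries share groups and composition. In platelets Ighm was most like Igkc (r = 0.972), Cd79b (0.969), Fgd2 (0.966), Fcrla (0.959) and Txndc5 (0.958). Igkc was most like Ighm, then Cd79b (0.964), Cd8b1 (0.954), Txndc5 (0.951) and Cd2 (0.948), of which Cd8b1 and Cd2 are T cell surface genes. Ighd was most like Ighm (0.942), then H2-Ob (0.934). Iglc1 and Iglc2 each had Iglc3 in the second place (0.923 and 0.946). In PBMCs Ighm was most like Cd79a (0.979), with Spib, Ly6d and Siglecg among the next genes, and Igkc was most like Cd79b (0.925). The 5 genes most like Ighd in PBMCs were Gm15675 (0.877), Scn4a, B3gnt5, Gm13012 and Trim34a (0.859), none of them on the B cell lists used here. Cd79a and Cd79b are B cell genes, and Spib is a transcription factor of B cells.

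Igha was most like Jchain in both fractions, with r = 0.965 in platelets and 0.963 in PBMCs, and r = 0.932 and 0.955 after each group was centred on its mean. In PBMCs Igha was followed by Ighg2b (0.943), and Ighg2b and Ighg2c were most like each other (0.95). In platelets the highest r between a pair of Ighg genes was 0.674, for Ighg2b and Ighg2c. The most like genes of Ighg1, Ighg2b and Ighg3 held no immunoglobulin gene among the top 5, at r of 0.794 to 0.854, and Ighg1 and Ighg2c had an r of 0.025. Platelet counts of Ighg1 (median 49), Ighg3 (47) and Ighg2c (35) were low, so their order of likeness is loosely fixed.

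**Figure D5:**
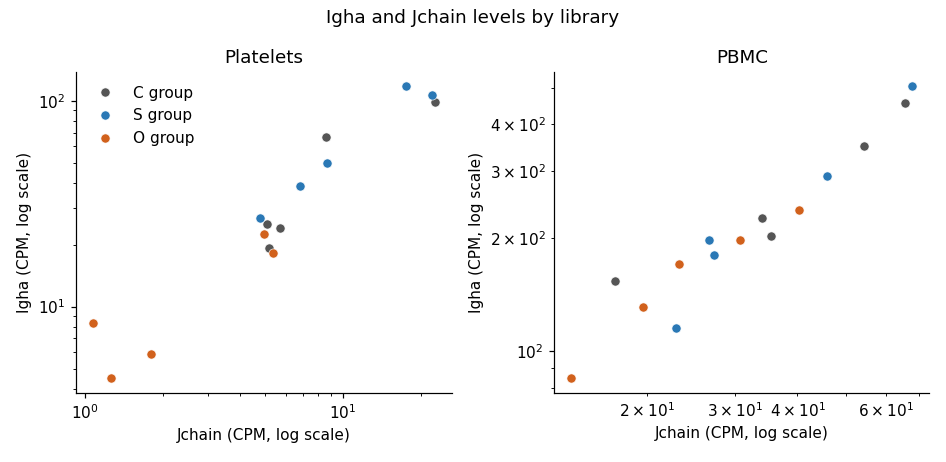
Igha against Jchain level in CPM (both axes logarithmic) in 15 platelet and 15 PBMC libraries, coloured by group. The points rise together in both fractions (r = 0.965 in platelets and 0.963 in PBMCs on the log2(CPM + 1) scale), with 3 O group platelet libraries lowest for both genes, at 4.49 to 8.33 CPM of Igha.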

How the data were processed

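RNA-seq read counts per gene of 15 platelet and 15 PBMC libraries were analysed as the authors deposited them, as raw counts in 1 table per fraction. Per the labels and the study's methods, poly-A libraries were aligned with HISAT2 2.0.5 and counted with featureCounts 1.5.0-p3, and the authors tested with DESeq2 1.16.1. Strandedness and the treatment of reads with several matches are not given in the sources used here. The labels name mm9, but 650 of 672 gene positions in the authors' result tables equal GRCm38, so GRCm38 annotation was used. The authors' fold changes and P values, which the files also hold, were not used.

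Of 54532 identifiers, 54409 had a symbol. Each pair of groups was fitted with edgeR 4.0.16 (quasi-likelihood test, TMM, filterByExpr) in R 4.3.3. A call was an unadjusted P under 0.05, the study's threshold, with Benjamini-Hochberg adjusted P beside it. Platelets and PBMCs were compared over all 30 libraries with condition as a covariate, called at an adjusted P under 0.05, and differences between fractions came from a fit of 6 groups. CPM are scaled within a fraction unless stated. Ratios used a pseudocount of 0.5 and exact two-sided permutation. The fits were tested on simulated data beforehand.

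The members, gene lists and tests were chosen with earlier results of these data known. Named genes were all 10 members, the related constant genes Ighe, Iglc3 and Iglc4, up to 4 genes per list and comparison with the smallest P, 8 defining B and plasma cell genes, and the 5 genes most like each member. Not all genes that this rule allows are printed, and some are not reported here. Alternatives were DESeq2 1.42.0, relative log expression (RLE) size factors, no filter, all 3 groups in one fit, a replicate block and leaving out each library. Same-numbered PBMC libraries deviated together between S and C (r of 0.269 to 0.559) and between S and O (0.109 to 0.389), which is taken as pairing. Other pairs of groups had at least 1 correlation below 0.1, although a number shared by S and C and by S and O is then shared by O and C too. Platelets and PBMCs came from the same blood, and the labels do not tie single pools of the fractions to each other. No 2 libraries were identical.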

Additional observations from a re-analysis of the deposited data

Results flagged for a closer look

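Single libraries stood apart from the other 4 of their group in 5 of 60 groups of member levels, and chance flags about 1 in 20. Ighd measured 301 CPM in replicate 5 of the platelet S group, against 189 to 220 CPM in the others, and 758 CPM in replicate 5 of the PBMC O group, against 516 to 543 CPM. Ighg1 measured 17.8 CPM in replicate 3 of the platelet C group, against 2.01 to 5.48 CPM. Ighg2c measured 12.6 CPM in replicate 1 of the platelet C group, against 0.874 to 2.32 CPM, and 8.58 CPM in replicate 5 of the platelet S group, against 1.28 to 2.72 CPM.

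The group difference of 2 members differed between platelets and PBMCs by the test of the difference itself, at an unadjusted P under 0.05. That was 1 of 10 members in each contrast, near the share over all genes (13.6% for S against O and 5.38% for S against C). For Igha, S minus O was larger in platelets by 1.685 on the log2 scale (edgeR, adjusted P = 0.289), and the value ranged up to 1.859 under the alternatives. For Ighg1, S minus C was -1.539 in platelets relative to PBMCs (edgeR, adjusted P = 0.907), and with the replicate block it was -1.194 and no longer under 0.05.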

How the results depend on the processing

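The number of members called in S against O platelets was 3 in DESeq2, with RLE size factors, without a filter and with the replicate block. With the replicate block, PBMC O against C had 6 calls in place of 3 and platelet S against C 0 in place of 1 (edgeR, with DESeq2 at 1). Same-numbered O and C group PBMC libraries had correlations of 0.04 to 0.419. PBMC O against C had 5 calls in DESeq2 and 1 with all 3 groups in one fit. Smaller moves were 7 calls with the block and 6 in DESeq2 in place of 5 for platelet O against C, and 5 in DESeq2 and with the block and 6 without a filter in place of 4 for PBMC S against O. Differences of an effect between fractions gave 2 calls for S against O in place of 1 in DESeq2, with RLE, without a filter and with the block, and 1 call for O against C in place of 0 without a filter and with the block. The counts over all genes moved too. With the block, genes called lower in O against C went from 288 to 524 of 13270 in platelets and from 646 to 717 of 14726 in PBMCs. Genes called higher in S against O PBMCs went from 651 to 779 of 14686. In DESeq2, 427 of 25525 genes were called lower in platelet O against C. The causes were not tested.

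Leaving out 1 library gave 3 to 5 calls in platelets S against O, 4 to 6 in O against C and 0 to 2 in S against C. In PBMCs it gave 0 to 6 for S against O, 1 to 6 for O against C and 0 to 2 for S against C. It left 5 to 8 ratios with a P under 0.05. Between fractions, leaving out both libraries of 1 replicate number gave 9 to 10 calls, with Ighg1 or Ighg3 lost in 14 of 15 such fits.

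Direction turned with the block for Ighg2b in platelets S against C (-0.11), for the difference of that effect between fractions (-0.028) and for Ighg2c between fractions in O against C (0.325), and without a filter for Ighm between fractions in S against C (0.029). Leaving out 1 library turned the direction of PBMC S against C for Ighg1 (-0.371 to 0.158), Ighg2b (-0.368 to 0.09), Ighg2c (-0.095 to 0.258), Ighg3 (-0.107 to 0.302), Igha (-0.501 to 0.166) and Iglc2 (-0.059 to 0.106). In platelets it turned Ighg2c in O against C (-0.944 to 0.556), S against O (-0.465 to 0.665) and S against C (-1.044 to 0.832), and Ighg2b in S against C (-0.2 to 0.282). Among log2 ratios it turned Ighg2c to Ighm in platelets S against C (-0.647 to 0.366) and O against C (-0.095 to 0.918) and in PBMCs S against C (-0.307 to 0.055) and S against O (-0.06 to 0.371). It also turned Ighm to Cd79a in platelets O against C (-0.045 to 0.13) and PBMCs S against C (-0.029 to 0.008), Igha to Ighm in PBMCs S against O (-0.031 to 0.444) and Ighd to Ighm in PBMCs O against C (-0.079 to 0.033). None of these had an unadjusted P under 0.05 with all libraries, by edgeR or by exact permutation.

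Ighg1, Ighg2c and Ighg3 had platelet medians of 49, 35 and 47 counts, which limits their precision.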
